A study of Mus musculus with 3 samples.

Results

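Periportal hepatocytes are the liver cells next to the portal tracts, where blood enters the lobule. Here they were the hepatocyte nuclei in the top 20% of a score, taken separately in each of 3 single-nucleus RNA sequencing libraries of mouse liver. The score of a nucleus was the percentage of its UMIs (unique molecular identifiers, 1 per captured RNA molecule) in 4 periportal genes, Cyp2f2, Hal, Sds and Gls2, minus the percentage in 3 pericentral genes, Cyp2e1, Oat and Cyp1a2. A hepatocyte nucleus had at least as many UMIs as the shallowest nucleus of the SD library, at most 5% mitochondrial UMIs and at most 2 UMIs over 9 markers of other liver cells. The rule gave 1367 members in the SD library, 1206 in MASLD and 1356 in Aza-TdC, which is 3929 of 19653 hepatocyte nuclei and of 21665 barcodes. The bottom 20% of the same score, with equal numbers, is called pericentral below.

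All mice were male C57BL/6N, with C57BL/6 as the strain label, and 8 weeks old when the diets began. The SD group ate a standard diet. The MASLD group was kept for 18 weeks on a diet that models metabolic dysfunction-associated steatotic liver disease, with a drink of 18.9 g/L glucose and 23.1 g/L fructose. The Aza-TdC group had the same diet and drink for 18 weeks and, from week 14 to week 18, a daily oral gavage of 2 mg/kg Aza-TdC (5-Aza-4′-thio-2′-deoxycytidine, a nucleoside analogue that inhibits DNA methyltransferase). The sources used here do not say whether the other groups were gavaged or how many animals a library holds. Nuclei came from 120 mg of frozen liver, were stained with DAPI and sorted, and were sequenced from the 3′ ends of their RNA.

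Blood flows from the portal tract to the central vein, so oxygen, nutrients and hormones fall along the way and hepatocytes divide their work by position. Periportal cells are known for urea synthesis, amino acid catabolism, gluconeogenesis, the oxidation of fatty acids and the secretion of plasma proteins. Pericentral cells, under Wnt signals from the central vein, are known for glutamine synthesis, bile acid synthesis and drug metabolism. In adult fatty liver disease the fat is usually described as most abundant on the pericentral side.

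Each group had 1 library, so no difference between groups could be tested. Levels below are CPM, the UMIs of a gene per 1000000 UMIs summed over a set of nuclei, given in the order SD, MASLD and Aza-TdC unless stated. Differences are log2 ratios of CPM, and a value in parentheses after one is its 95% interval. Intervals cover counting error within these libraries and not the spread between animals. "Past the fold" means that a log2 ratio reached 1 in size in either direction, with at least 20 UMIs over the compared sums.

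The members held 7744833, 7926303 and 8874649 UMIs. Their median was 5345, 6110.5 and 6032.5 UMIs per nucleus, against 6196, 6959 and 7310.5 in pericentral nuclei. Of the barcode sequences, 9 to 15 were shared by each pair of libraries, and 2 of these were members in both MASLD and Aza-TdC. Markers of other cell types, some of which the rule itself limits, were low in the members. Their summed level was 10.7, 15.3 and 9.47 CPM for 8 endothelial genes, 2.71, 13.1 and 18.3 CPM for 8 macrophage genes, 27.4, 13.0 and 8.79 CPM for 8 stellate genes, and 3.23 to 3.83 CPM for 6 lymphocyte genes. The 14 cholangiocyte and ductular genes summed to 99.2, 184 and 168 CPM, with Pkhd1 at 56.9, 114 and 99.5 CPM. In pericentral nuclei they summed to less, 69.0, 113 and 99.7 CPM. A UMI of these genes was found in 38.6%, 58.4% and 60.1% of members. Of those measured, 4 of 4, 6 of 6 and 4 of 4 were higher in members than in pericentral nuclei. Epcam and Cd24a were at 0 in all members, and 4 of the 14 genes were at 0 in each library. Red blood cell genes set the MASLD library apart: 4 globin genes summed to 23.0, 327 and 36.7 CPM in the members and to 23.6, 340 and 36.5 CPM in pericentral nuclei. Nuclear RNA differed in the other direction. The nuclear transcript Malat1 stood at 52392, 33561 and 42356 CPM, and the cytoplasmic actin mRNA Actb at 27.1, 82.1 and 35.7 CPM.

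The 4 genes of the score's high side were far apart between the ends of every library, as the rule makes them. Cyp2f2, a cytochrome of the airway and the periportal lobule (chr7:27119909-27133660, forward strand, GRCm38), stood at 580.0 (563 to 597), 608 (591 to 625) and 737 (719 to 755) CPM in the members and at 29.3, 16.1 and 24.7 CPM in pericentral nuclei. Hal, the histidine ammonia lyase that starts histidine breakdown (chr10:93488768-93519304, forward strand), stood at 373 (359 to 387), 275 (264 to 287) and 356 (344 to 369) CPM in the members. Sds, the serine dehydratase that turns serine into pyruvate (chr5:120476526-120483932, forward strand), stood at 2193 (2161 to 2227), 981 (959 to 1003) and 1469.9 (1445 to 1495) CPM. Gls2, the liver glutaminase that feeds ammonia to the urea cycle (chr10:128194457-128210004, forward strand), stood at 799.8 (779.97 to 819.9), 316 (303 to 328) and 414 (400.5 to 427) CPM. Cyp2f2 was nearer to level across the libraries, whereas Sds and Gls2 were highest in SD, lowest in MASLD and between in Aza-TdC. Because these levels chose the members, they are given as a description.

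Most members carried at least 1 UMI of these genes and fewer pericentral nuclei did, although pericentral nuclei were deeper. A Cyp2f2 UMI was found in 90.8%, 93.9% and 96.2% of members and in 17.7%, 10.2% and 16.8% of pericentral nuclei. For Gls2 the shares were 97.0%, 80.3% and 88.6% against 51.6%, 8.13% and 15.3%. Gls2 was present in over 1 in every 2 pericentral nuclei of the SD library and in far fewer of those of the MASLD library. Low Gls2 is part of how pericentral nuclei were chosen, and their median score was -0.180 in SD and -0.273 in MASLD. These shares are therefore a description only.

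The score itself was distributed differently in the 3 libraries, so the same 20% lies at different scores. A member needed a score of at least 0.287059, 0.124158 and 0.222442 percent of UMIs, and the first nucleus outside the cut had 0.287003, 0.1241 and 0.222346. Within 0.02 of the cut lay 417, 421 and 658 nuclei. The median score of all hepatocyte nuclei was 0.0733, -0.0926 and 0.111. Of the MASLD hepatocyte nuclei 2.47% (exact binomial interval 2.09 to 2.89) reached the SD library's high cut, and 8.31% (7.67 to 8.996) of the Aza-TdC nuclei did, against 20% in SD by construction. The SD library's low cut was passed by 46.1% (44.9 to 47.4) of MASLD and 30.01% (28.9 to 31.1) of Aza-TdC nuclei. The MASLD scores thus sat lower than those of SD, while the Aza-TdC scores had a median above that of SD and fewer nuclei past its high cut. An equal rank need not be an equal place in the lobule. Values with the SD cut in all libraries (149 members in MASLD, 564 in Aza-TdC) are given for some of the results that they move. Other values left their reported interval with that cut and are not marked below. Among them were the diet ratio of Cd36 in the members, 5.13 with the SD cut, and the treatment ratio of Mt1, 3.01.

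**Figure D1:**
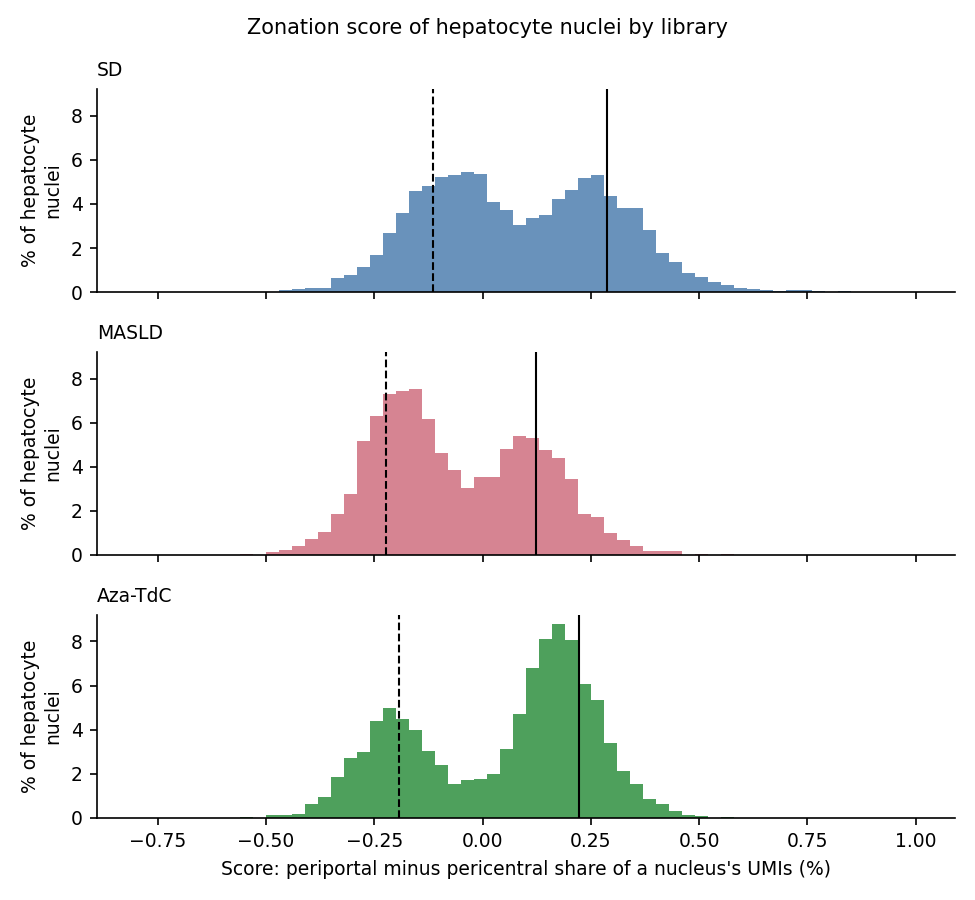
Distribution of the score (percent of a nucleus's UMIs in the 4 periportal genes minus the percent in the 3 pericentral genes, x axis) as the percentage of hepatocyte nuclei per bin (y axis) in the 3 libraries; solid lines mark the high cut and dashed lines the low cut. The high cut lies at 0.287059, 0.124158 and 0.222442 in the order SD, MASLD and Aza-TdC, and each library shows a low and a high hump.

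When a score gene was left out of the score and the nuclei were ranked on the other 6, that gene still separated the ends. Without Gls2 in the score, its log2 ratio of top to bottom was 1.73 (1.65 to 1.81), 4.01 (3.77 to 4.26) and 3.45 (3.29 to 3.62) in the order of the libraries. Sds gave 3.81 (3.72 to 3.8996), 5.07 (4.87 to 5.28) and 4.296 (4.17 to 4.42) in the same way. All 21 such values (7 genes in 3 libraries) were past the fold in the direction of the score, and between 67.3% and 99.6% of members stayed members. For Gls2 the SD library gave the lowest of the 3 values, as it did for Sds.

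Outside the score, the ends of the lobule differed in the genes long used to mark them. These zone ratios come from the contrast the rule used and are a description only. In SD 3.09% of 12513 measured genes were past the fold toward the periportal end and 3.94% toward the pericentral end. In MASLD the shares were 3.86% and 4.09% of 12915 genes, and in Aza-TdC 4.67% and 3.74% of 12963 genes. Of 25 other periportal genes, 8 of 24 measured in SD, 18 of 25 in MASLD and 15 of 24 in Aza-TdC were past the fold toward the periportal end and 0 toward the other. Their median log2 ratio was 0.70, 1.38 and 1.504, where the median of all measured genes was 0.032, 0.032 and 0.073. Of 27 other pericentral genes, 25, 23 and 26 were past the fold toward the pericentral end, with medians of -2.79, -3.36 and -3.92.

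Across the 3 libraries 165 genes were periportal past the fold in all and 218 were pericentral in all, of 12096 measured in all. SD and MASLD shared 182 periportal genes, which is 57.2% of the 318 in SD and 46.4% of the 392 in MASLD among the 12186 genes measured in both, and 3 genes were periportal in SD and pericentral in MASLD. On the pericentral side they shared 261 genes, 56.7% of 460 and 67.4% of 387. MASLD and Aza-TdC shared 299 periportal genes, 67.5% of 443 and 55.0% of 544 among the 12585 genes measured in both. In the shared periportal genes the median absolute log2 ratios were 1.83, 1.98 and 2.23.

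The leading periportal genes outside the score came from several functions. Chrm3, a muscarinic acetylcholine receptor (chr13:9875486-10360847, reverse strand), stood at 84.4, 303 and 258 CPM in the members and 2.14, 3.36 and 5.29 CPM in pericentral nuclei, log2 ratios of 5.303, 6.498 and 5.61. Cryl1, an enzyme of the glucuronate pathway, stood at 268, 234 and 274 against 8.98, 3.36 and 5.86 CPM. Gldc, the glycine decarboxylase of the glycine cleavage system, stood at 191, 290.2 and 447 against 18.6, 13.6 and 20.04 CPM. Each was lower in pericentral nuclei of every library by more than 3 on the log2 scale.

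The other leaders were Grm8 (a glutamate receptor), Etnppl (ethanolamine-phosphate phospho-lyase), Sdsl (serine dehydratase-like), Ncam2, Nipal1, Rasgef1b and Reck. Grm8 stood at 123, 126 and 454 CPM in the members, highest in Aza-TdC, with 4.49, 1.12 and 9.83 CPM in pericentral nuclei. Ncam2, a neural cell adhesion molecule, stood at 454, 232 and 173 CPM, highest in SD, with 39.4, 7.49 and 7.94 CPM in pericentral nuclei. Sdsl was level across the members at 39.9, 37.97 and 39.1 CPM.

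The genes lowest in the members included classical Wnt targets of the central vein. Lgr5, the R-spondin receptor, stood at 3.74, 1.01 and 1.01 CPM in the members against 179, 99.9 and 108 CPM in pericentral nuclei. Slc1a2, a glutamate transporter, stood at 24.1, 6.81 and 5.18 against 695, 443 and 443 CPM, log2 ratios of -4.85, -6.02 and -6.42. Lhpp, a phosphohistidine phosphatase, stood at 12.01, 1.39 and 1.24 against 286, 92.1 and 85.9 CPM. Residual pericentral RNA was highest in the SD members for each of these genes. Glul, the glutamine synthetase of the last pericentral cells, stood at 46.4, 45.9 and 21.6 CPM in the members and 322, 541 and 395 CPM in pericentral nuclei. Tox, Esrrg, Tenm3, Kif26b, Cyp2c38 and Slc22a27 were the other genes lowest in the members, and for Tbx3os1, an antisense transcript, reads of its sense partner cannot be told apart because no source used here states the strand setting of the counting.

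Promoters were searched because zone genes move together and Wnt signalling acts through TCF/LEF factors. The sequences run from 250 bases before to 50 bases after each RefSeq gene start (GRCm38.p6), and the TCF/LEF letters CTTTGAT were sought on both strands. They occurred in 3.21% of all 32851 promoters and in 2.39% of 11874 promoters of measured genes, for which 9258 of 12094 genes had an entry. Of promoters of genes pericentral in all 3 libraries 6.45% (interval 3.57 to 10.6, 14 of 217, 150 of 218 genes with an entry) held a match, and of the periportal ones 2.6% (0.712 to 6.52, 4 of 154, 114 of 165 genes). The cyclic AMP element TGACGTCA was in 1.55% of all promoters, 2.55% of those of measured genes, 3.25% of the periportal and 0.922% of the pericentral ones. In the same order the HNF4A letters GGACTTTG were in 1.2%, 1.25%, 3.25% and 1.84%. The TCF/LEF and HNF4A letters overlap in CTTTG. For the periportal genes the interval of each motif's share held the share of measured genes, and for the pericentral genes the TCF/LEF interval lay above it. These intervals count each promoter as separate, although starts of the same gene can share bases, so they may be too narrow. The gene sets also come from the contrast the rule used, and enrichment was not tested. A match is a run of letters and not a binding site.

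Among the score genes only the promoter of Hal held the TCF/LEF letters, of the 5 with an entry, and among the leading pericentral genes only that of Slc1a2, of the 7 with an entry. Both are shown so that the periportal and the pericentral instance of the same letters can be read side by side. The Hal stretch is chr10:93488518-93488767 on the forward strand, the 250 bases before the gene start, with the match (capitals) beginning 199 bases before the start. The Slc1a2 stretch is chr2:102706188-102706437 on the forward strand, before a start that lies inside the gene's span of chr2:102658659-102790784, forward strand, with the reverse complement of the letters (capitals) beginning 207 bases before that start.
Hal: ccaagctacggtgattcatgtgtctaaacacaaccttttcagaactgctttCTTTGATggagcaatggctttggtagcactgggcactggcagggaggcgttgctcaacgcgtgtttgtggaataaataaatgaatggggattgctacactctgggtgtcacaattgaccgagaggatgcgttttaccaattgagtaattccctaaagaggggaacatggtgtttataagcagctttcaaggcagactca
Slc1a2: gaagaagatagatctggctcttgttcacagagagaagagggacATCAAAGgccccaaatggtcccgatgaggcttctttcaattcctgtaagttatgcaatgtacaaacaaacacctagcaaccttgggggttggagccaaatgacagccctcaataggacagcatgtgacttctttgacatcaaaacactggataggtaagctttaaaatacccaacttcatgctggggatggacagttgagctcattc

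Metabolic lists were set between the lobule ends in the same way. The 15 urea cycle and ammonia genes had median zone ratios of 0.016, 0.67 and 0.27, with 0, 4 and 3 genes past the fold toward the periportal end and 3, 3 and 3 toward the other. For 32 amino acid catabolism genes the medians were 0.001, 0.22 and 0.18, with 5, 8 and 6 genes past the fold toward the periportal end. The 21 lipogenesis genes had medians of 0.20, 0.41 and 0.74, and 28 plasma protein genes 0.27, 0.45 and 0.23. Fatty acid oxidation genes had medians near 0, at -0.022, -0.18 and 0.011. Of 26, 28 and 28 measured, 1, 1 and 1 were past the fold toward the periportal end and 6, 2 and 0 toward the other. In MASLD 23 of the 28 had a ratio below 0. Xenobiotic cytochromes were low in the members, at -1.39, -1.51 and -1.06.

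**Figure D2:**
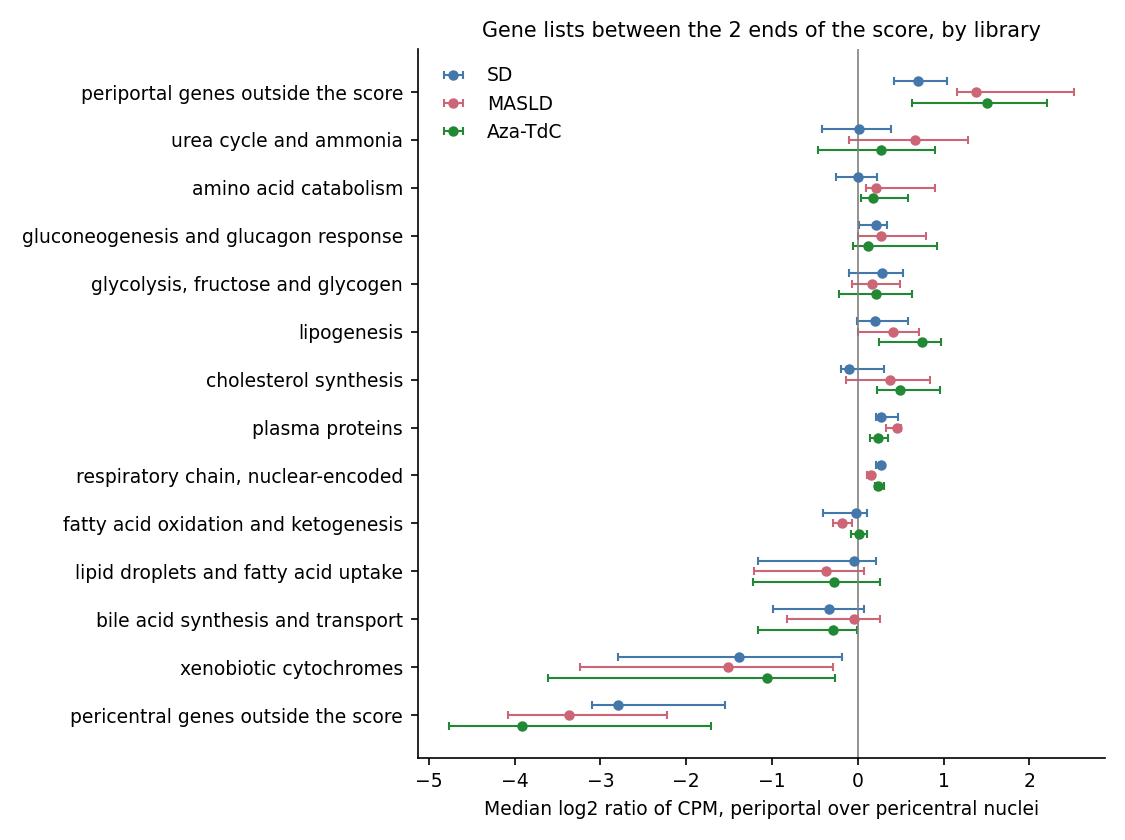
Median log2 ratio of periportal to pericentral CPM (x axis) over the measured genes of 14 lists (y axis) in the SD, MASLD and Aza-TdC libraries; bars are order-statistic intervals over a list's genes. Pericentral genes lie at -2.79 to -3.92, and the urea list lies at 0.016 in SD and 0.67 in MASLD.

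Of 21 lipid droplet and fatty acid uptake genes 14 were past the fold higher in the members on the MASLD diet and 0 lower, and of 16 genes of glycolysis, fructose and glycogen 5 were past it lower and 0 higher. In MASLD against SD members 11.1% of 12613 measured genes were past the fold higher and 3.88% lower, with a median over all genes of 0.13. Lower genes included Ass1, Got1, Pygl and Acly, and higher genes Cd36, Fgf21, Pnpla3 and Scd1, with values below. Scaling by the median ratio moved the median of all genes to 0.029 and the share of calls that were higher from 74.1% to 65.9%.

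Among 14 measured urea cycle and ammonia genes 2 were past the fold lower and 0 higher in MASLD members, with a median of -0.23. Ass1, the argininosuccinate synthase of the urea cycle (chr2:31470207-31520672, forward strand), stood at 1585 (1557 to 1614), 529 (513 to 546) and 641 (624 to 658) CPM in the members. Its MASLD level was a small part of the SD level, a log2 ratio of -1.58 (-1.63 to -1.53), and its Aza-TdC level was nearer to MASLD than to SD. With the SD cut the ratio was -1.196. Slc38a3, the glutamine transporter SNAT3, stood at 1038, 497 and 499 CPM, a ratio of -1.06 (-1.12 to -1.01), or -0.79 with the SD cut. Asl, the next enzyme of the cycle, stood at 965, 493 and 456 CPM and Slc7a2, a carrier of arginine and lysine, at 6189.8, 3263 and 3387 CPM, both short of the fold at -0.97 and -0.92. Cps1, which makes carbamoyl phosphate for the cycle (chr1:67123026-67231259, forward strand), stood at 4756 (4708 to 4805), 3861 (3817 to 3904) and 4794 (4748 to 4839) CPM, a ratio of -0.30 (-0.32 to -0.28). Arg1 stood at 1153, 1345 and 1121 and Otc at 239, 251 and 269.6 CPM, so that the cycle's members did not differ alike.

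Of 32 amino acid catabolism genes 3 were past the fold lower and 0 higher, with a median of -0.31. The 3 were Gnmt, the glycine methyltransferase, at 2865, 1148 and 1416 CPM, Cbs, the cystathionine synthase, at 238, 96.3 and 119 CPM, and Prodh, the proline dehydrogenase, at 185, 85.9 and 137 CPM. Their diet ratios were -1.32, -1.31 and -1.11, and with the SD cut Gnmt and Prodh stood at -0.85 and -0.84. Tat, the tyrosine aminotransferase, stood at 2836, 1433 and 1580.01 CPM, a ratio of -0.98. Gldc went the other way at 0.60.

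Gluconeogenesis genes were lower in part, with 2 of 18 past the fold lower, 0 higher and a median of -0.36. G6pc, the catalytic subunit that releases glucose (chr11:101367561-101377903, forward strand), stood at 1497 (1469 to 1524), 645 (628 to 663) and 306 (294 to 317) CPM, a stepwise order with SD highest and Aza-TdC lowest. Its MASLD ratio was -1.21 (-1.26 to -1.17). Got1, the cytosolic aspartate aminotransferase, stood at 706, 234 and 121 CPM, a ratio of -1.596 (-1.67 to -1.52), or -1.04 with the SD cut. Pck1, which makes phosphoenolpyruvate, stood at 3513, 2601 and 2493 CPM, a ratio of -0.43 (-0.46 to -0.41).

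Of 16 glycolysis, fructose and glycogen genes 5 were past the fold lower and 0 higher, with a median of -0.60. Pygl, the liver glycogen phosphorylase, stood at 739, 149.8 and 154 CPM, a ratio of -2.303 (-2.39 to -2.21). Khk and Tkfc are kinases of fructose breakdown and were highest in SD. Khk stood at 363, 140.04 and 113 CPM and Tkfc at 550.4, 114 and 92.3 CPM. Pklr, the pyruvate kinase of liver, stood at 635, 237 and 83.7 CPM, a ratio of -1.42, or -2.36 with the SD cut. Gckr, the regulator of glucokinase, stood at 569.5, 284 and 298 CPM, a ratio of -1.003 that was -0.80 with the SD cut and fell short of the fold in 5 other settings.

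Lipogenesis genes split, with 9 of 21 past the fold higher and 4 lower and a median of 0.058. On the higher side Scd1, the stearoyl-CoA desaturase, stood at 84.1, 1007 and 702 CPM, a ratio of 3.58 (3.47 to 3.701). Elovl5 and Fads2 elongate and desaturate polyunsaturated fatty acids. Elovl5 stood at 111, 707 and 955 CPM and Fads2 at 373, 1158 and 1259.5 CPM. Gpam, the acyltransferase that begins triglyceride synthesis, stood at 199, 668 and 922 CPM and Srebf1, the transcription factor of lipogenesis, at 125, 325 and 316 CPM. On the lower side Acly, which makes cytosolic acetyl-CoA, stood at 491, 109 and 149.98 CPM, a ratio of -2.18 (-2.29 to -2.07). Elovl6, the elongase of saturated fatty acids, stood at 872, 216 and 297 CPM, and Lpin1 and Aacs were the other genes past the fold lower. Fasn, the fatty acid synthase, stood at 168, 98.5 and 127 CPM, a ratio of -0.77. The list thus held genes on both sides, and Scd1, Fads1, Fads2, Gpam, Elovl2, Elovl5, Srebf1, Acacb and Pnpla3 were the 9 higher ones.

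Pnpla3, a lipid droplet protein of periportal hepatocytes (chr15:84167837-84187236, forward strand), stood at 5.16 (3.69 to 7.03), 78.5 (72.4 to 84.9) and 195 (186 to 205) CPM in the members, with no overlap of the counting intervals. Its diet ratio was 3.93 (3.46 to 4.42). In pericentral nuclei it stood at 1.82, 7.27 and 8.88 CPM. Hsd17b13, another lipid droplet protein with a periportal pattern (chr5:103955440-103977410, reverse strand), stood at 444, 849 and 807 CPM in the members and 46.2, 111 and 72.6 CPM in pericentral nuclei, a diet ratio of 0.94 (0.88 to 0.995) in the members. Both genes kept their periportal side in all 3 libraries, with zone ratios of 1.51, 3.43 and 4.46 for Pnpla3 and 3.27, 2.93 and 3.47 for Hsd17b13.

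Of 21 measured lipid droplet and fatty acid uptake genes 14 were past the fold higher and 0 lower, with a median of 1.43. Cd36, the fatty acid translocase (chr5:17781690-17888801, reverse strand), stood at 3.74 (2.51 to 5.38), 216 (206 to 226) and 126 (119 to 133) CPM, a ratio of 5.85 (5.32 to 6.43). Cidec, which fuses lipid droplets, stood at 8.13, 134 and 46.99 CPM, a ratio of 4.04 (3.67 to 4.43). Fabp1, the fatty acid binding protein of liver, stood at 541, 2889 and 967 CPM, and G0s2, an inhibitor of lipolysis, at 275, 1013 and 464 CPM. Plin2, the droplet coat protein, stood at 155, 418 and 290.5 CPM. MASLD was highest and SD lowest for each of these 5 genes.

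Of 28 fatty acid oxidation and ketogenesis genes 11 were past the fold higher and 0 lower, with a median of 0.55. Fgf21, the hormone of fasting and fat feeding, stood at 3.36, 98.5 and 46.6 CPM, a ratio of 4.88 (4.31 to 5.499). Vnn1, a pantetheinase, stood at 1.94, 59.4 and 28.3 CPM, a ratio of 4.94 (4.203 to 5.79). Ehhadh, a peroxisomal enzyme, stood at 60.2, 245 and 147 CPM, and Cyp4a14, a fatty acid hydroxylase whose reads may be shared with its close relatives, at 47.9, 641 and 1808 CPM. Cpt1a, the gate of mitochondrial oxidation, stood at 520.1, 690.1 and 568 CPM, a ratio of 0.41. The other genes past the fold were Cyp4a10, Cyp4a31, Acaa1b, Acot1, Acot2, Pdk4 and Bdh1. Pdk4, the kinase that restrains pyruvate oxidation, stood at 1.03, 15.6 and 18.5 CPM, and Acaa1b, a peroxisomal thiolase, at 655, 2710.2 and 3526 CPM.

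Glutathione and NRF2 genes had 9 of 21 past the fold higher and 0 lower, with a median of 0.97, and stress and p53 genes 7 of 15 higher and 0 lower, with a median of 0.69. Gpx1, a glutathione peroxidase, stood at 75.7, 268 and 139.7 CPM, and Gdf15, a stress hormone, at 6.33, 38.9 and 18.03 CPM. Acute phase genes had 5 of 14 higher and 0 lower. Saa1, a serum amyloid, stood at 1.29, 22.1 and 13.2 CPM, with few UMIs in SD. Among 28 plasma protein genes 6 were past the fold higher and 1 lower, the median being 0.058. Ttr, the carrier of thyroid hormone, stood at 774, 2848 and 1514 CPM, Cp, the copper oxidase ceruloplasmin, at 196, 644 and 848 CPM, and Alb, albumin, at 7047, 6644 and 7315 CPM.

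Most genes of a list that mixes nuclear with cytoplasmic transcripts, used to describe RNA quality, were also higher in MASLD members. On this list 10 genes had a ratio above 0 and 2 below. Its summed level went the other way, at 57558, 37989 and 45640 CPM, with Malat1 lower in MASLD. Of 12 nuclear and RNA quality genes 7 were past the fold higher in MASLD members and 0 lower, with a median of 1.13, and all 4 red blood cell genes were higher. Small cytoplasmic mRNAs such as Fth1, at 101, 296 and 151 CPM, and Tmsb4x, at 2.71, 20.2 and 7.32 CPM, were among the 7. In pericentral nuclei 8 of the 12 were higher. Their part in the diet ratios was not tested.

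The largest diet ratios by the bound nearest 0 lay mostly outside these lists. Apoa4, an apolipoprotein of fatty liver, stood at 18.3, 761 and 261 CPM in the members, a ratio of 5.37 (5.13 to 5.62). Osbpl3, a lipid transfer protein, stood at 3.62, 216 and 84.2 CPM, a ratio of 5.901 (5.36 to 6.49). Fut2, a fucosyltransferase, stood at 0.129, 56.02 and 23.6 CPM, with 1 UMI behind the SD value. Plscr4, a phospholipid scramblase, stood at 1.55, 99.5 and 31.6 CPM, Rbfox1, a splicing factor, at 2.07, 102 and 98.1 CPM and Tmem86a, a lysoplasmalogenase, at 0.387, 23.97 and 18.6 CPM. SD was lowest for each of these genes, and Rbfox1 was about as high in Aza-TdC as in MASLD. Cyp2a4, Ifi27l2b and Pnpla5 had 0 UMIs in SD members and were at least 55.4, 31.9 and 28.01-fold higher in MASLD against a floor of 3 counts in the SD library.

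At the low end Pdgfrl, a receptor-like secreted protein, stood at 359.9, 37.3 and 23.3 CPM, a ratio of -3.27 (-3.45 to -3.095), and Pcdh11x, a protocadherin, at 128, 11.1 and 3.94 CPM. Serpina1e, an alpha-1 antitrypsin of a gene family with shared reads, stood at 300.5, 34.6 and 15.5 CPM, a ratio of -3.12, or -1.94 with the SD cut. Cyp2c54, a family member with close relatives, stood at 49.97, 1.51 and 5.296 CPM in the members and 146, 56.3 and 208 CPM in pericentral nuclei. Adcy2, Avil, Gna14, Hsd3b5 and Srgap3 were also among the lowest genes, each at 7.62 to 15.9 CPM in SD members and under 1 CPM in MASLD members. Gna14 stood at -6.14, or -2.89 with the SD cut.

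The diet was also compared at both ends of the lobule, within the same libraries. The difference between the ends, the log2 ratio in the members minus that in pericentral nuclei, was past the fold higher in 1.93% of 11708 measured genes and lower in 1.37%. It was taken where each of the 4 sums held at least 10 UMIs. In pericentral nuclei 7 of 15 urea genes and 8 of 32 amino acid genes were past the fold lower on the diet, where 4.25% of all 12869 measured genes were, with medians of -0.64 and -0.69. Pericentral nuclei were cut at a score of -0.114 in SD and -0.224 in MASLD. The part of these unequal cuts in the diet ratios and in the differences between zones was not tested. Ass1 had a diet ratio of -2.85 (-2.92 to -2.78) in pericentral nuclei, where it stood at 1467, 203 and 222 CPM, so that the difference between zones was 1.27 (1.18 to 1.35). Cps1 stood at 4755, 2024 and 3969.5 CPM there, level with the members in SD and well under them in MASLD, a difference between zones of 0.93 (0.90 to 0.96). Over the urea list 1 gene was past the fold higher and 0 lower in this difference, with a median of 0.41, and over 32 amino acid genes 4 were higher and 0 lower, 27 above 0. The median of the difference over all measured genes was 0.010. Agxt, the alanine-glyoxylate aminotransferase, stood at 29.6, 16.9 and 19.9 CPM in the members and 18.8, 2.68 and 6.05 CPM in pericentral nuclei, with diet ratios of -0.81 and -2.81 (-3.49 to -2.19). Of 23 measured other periportal genes 6 were past the fold higher in the difference and 0 lower, with a median of 0.74.

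Bands of rank describe how levels ran along each library's own ranking. Equal bands lie at different scores, the median score of all hepatocyte nuclei being 0.0733, -0.0926 and 0.111. They therefore do not place a difference between libraries at a given position of the lobule. With all hepatocyte nuclei of a library split into 5 bands of equal number, from the lowest score to the members, Ass1 stood at 1467, 1659, 1569.6, 1505 and 1585 CPM in SD. In MASLD the bands stood at 203, 236, 290.1, 371 and 529 CPM, and in Aza-TdC at 222, 341, 518, 575 and 641 CPM. The SD profile was flat, whereas the MASLD and Aza-TdC profiles climbed toward the members. Cps1 stood at 4755, 5755, 5397, 4991 and 4756 CPM in SD. In MASLD the bands stood at 2024, 2631, 2841, 3314 and 3861 CPM, and in Aza-TdC at 3969.5, 5008, 4718, 5034 and 4794 CPM. Its slope was seen in MASLD, while the Aza-TdC profile was nearly as flat as that of SD. Pck1 stood at 1111, 1222, 1366, 2054 and 2601 CPM in MASLD, and its zone ratios were 0.34, 1.23 and 0.96. Hsd17b13 stood at 111, 166, 341, 868 and 849 CPM in MASLD, near its full level by the fourth band, and at 72.6, 258, 771, 813 and 807 CPM in Aza-TdC, near it by the third.

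**Figure D3:**
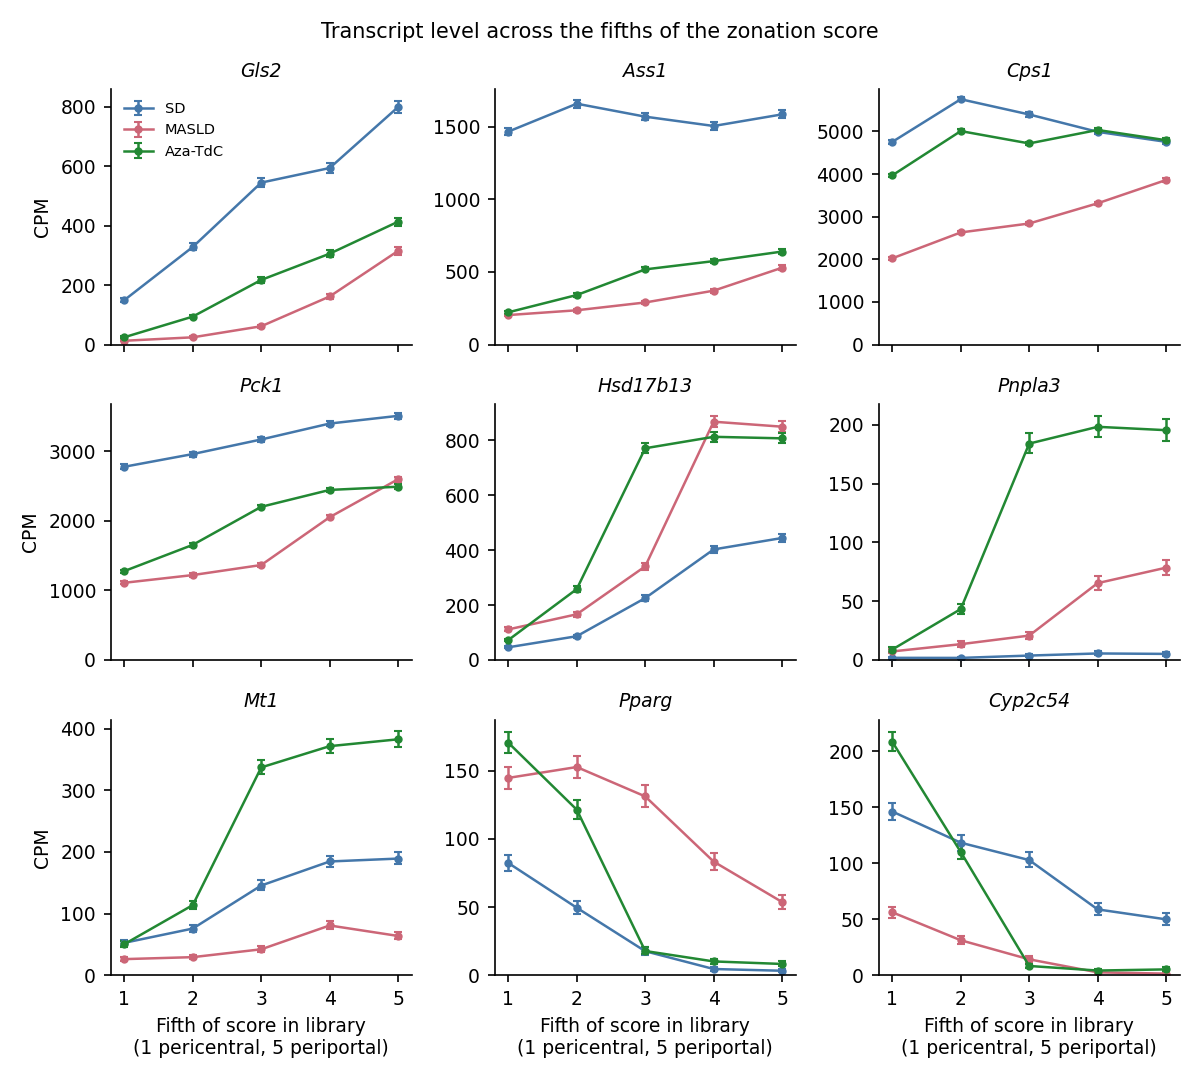
CPM (y axis) of 9 genes in 5 bands of hepatocyte nuclei ranked by the score (x axis, 1 for pericentral nuclei and 5 for the members) in the 3 libraries; bars are exact Poisson intervals of the counts. Ass1 is flat in SD and climbs from 203 to 529 CPM in MASLD, and Pparg in MASLD falls only to 53.7 CPM in the members.

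Other genes also differed between zones on the diet. Pparg, the lipid-storing nuclear receptor (chr6:115360951-115490399, forward strand), stood at 3.36 (2.19 to 4.92), 53.7 (48.8 to 59.1) and 8.34 (6.55 to 10.5) CPM in the members and 82.4, 145 and 171 CPM in pericentral nuclei. Its diet ratio was 4.001 (3.43 to 4.63) in the members and 0.81 (0.68 to 0.94) in pericentral nuclei, a difference of 3.19 (2.602 to 3.77), or 2.49 with the SD cut. MASLD was the only library of the 3 with over 10 CPM of Pparg in the members. Aldh3a2, a fatty aldehyde dehydrogenase, stood at 30.1, 322 and 204 CPM in the members and 256, 654 and 534 CPM in pericentral nuclei, a difference of 2.07 (1.86 to 2.27). Cd36 gave 2.03 (1.47 to 2.59), with 26.5, 374 and 292 CPM in pericentral nuclei. For Pparg, Aldh3a2 and Cd36 the members were far under pericentral nuclei in SD and nearer to them in MASLD. Osbpl3 gave 2.63 (2.06 to 3.195), and the score gene Gls2 2.19 (1.91 to 2.47), which describes nuclei chosen by that gene.

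Abcg5 and Abcg8 form the pump that sends cholesterol into bile. Abcg5 stood at 80.3, 265 and 259.6 CPM in the members and 112, 140.5 and 187 CPM in pericentral nuclei, with diet ratios of 1.72 (1.59 to 1.86) and 0.33 (0.21 to 0.45). Abcg8 stood at 91.7, 271 and 219 CPM in the members, with diet ratios of 1.57 in the members and 0.24 in pericentral nuclei. The difference between zones was 1.39 (1.22 to 1.57) for Abcg5 and 1.32 (1.16 to 1.49) for Abcg8. Slc10a2, a bile acid transporter (chr8:5083219-5105351, reverse strand), stood at 21.2, 54.4 and 61.1 CPM in the members and 17.2, 8.95 and 8.601 CPM in pericentral nuclei, higher on the diet at the periportal end and lower at the other.

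Nnmt, the nicotinamide methyltransferase, was lower on the diet at both ends, at 268, 34.6 and 14.4 CPM in the members and 202, 5.15 and 6.8999 CPM in pericentral nuclei, a difference of 2.34 (1.88 to 2.802), or 3.29 with the SD cut. Tshz2, C9 (a terminal complement component), Cyp2b10 and the imprinted transcript Meg3 were the other genes highest in the difference, at 2.77, 1.98, 2.39 and 4.23. Cyp2b10, a drug-metabolising cytochrome, stood at 7.36, 9.84 and 6.31 CPM in the members and Meg3 at 1.81, 1.89 and 1.01 CPM. In pericentral nuclei Cyp2b10 stood at 50.1, 12.8 and 7.56 CPM and Meg3 at 31.98, 1.79 and 0.378 CPM, both highest in SD.

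At the other end of the difference stood cytochromes and signalling genes. Cyp2c54 gave -3.67 (-4.51 to -2.83). Cyp2c50, Cyp2c38, Cyp2c67 and Cyp2c29 gave -2.54, -1.99, -1.77 and -1.72, with reads that close relatives may share, and with the SD cut Cyp2c38 and Cyp2c67 gave -1.28 and -2.395. With nuclei thinned to equal depth before scoring Cyp2c38 gave -1.23. Tcf7l1, a TCF/LEF repressor (chr6:72626378-72789254, reverse strand), stood at 158, 111 and 167 CPM in the members and 12.6, 37.8 and 25.6 CPM in pericentral nuclei, a difference of -2.098 (-2.43 to -1.77). Plxna2, a semaphorin receptor, stood at 153, 137 and 162 CPM in the members and 10.2, 47.6 and 20.04 CPM in pericentral nuclei, differing most in pericentral nuclei. MASLD was the highest library in pericentral nuclei and the lowest in the members for Tcf7l1 and Plxna2. Aox3 and Pakap, a symbol carried by 2 gene IDs, were also among the genes at the low end, and Aox3 stood at -1.55, or -0.97 with the SD cut.

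**Figure D4:**
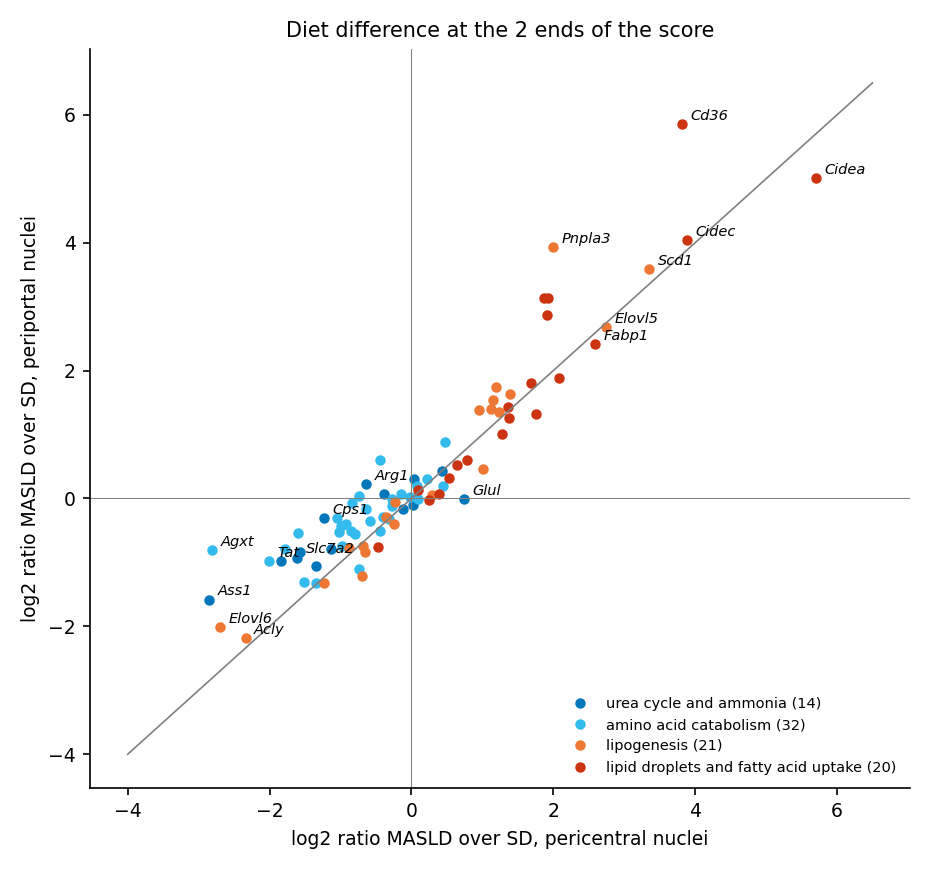
Diet log2 ratio (MASLD against SD) in the members (y axis) against pericentral nuclei (x axis), 1 point per gene for the urea cycle, amino acid, lipogenesis and lipid droplet lists; the diagonal marks equal ratios. Ass1 lies above the diagonal at -1.58 and -2.85, and Cd36 at 5.85 and 3.82.

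Aza-TdC was given on top of the diet, and its comparison with MASLD asks how treated members differed from untreated ones on the same diet. Treated members held more metallothionein, Cux2, Cyp2b9 and Pnpla3 RNA and less lipid droplet, globin and G6pc RNA. Of 12799 measured genes 2.27% were past the fold higher and 4.13% lower, with a median over all genes of -0.072. Scaling by the median ratio moved that median to -0.0078 and the share of calls that were higher from 35.4% to 42.9%. The diet and treatment ratios share the MASLD library, so a gene high in that library alone is high in the first and low in the second.

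Mt1 and Mt2 bind zinc and copper and lie side by side. Mt1 (chr8:94179082-94180327, forward strand) stood at 189 (179.7 to 199), 63.8 (58.4 to 69.7) and 383 (369.9 to 396) CPM in the members, with Aza-TdC highest, MASLD lowest and SD between. Its treatment ratio was 2.58 (2.45 to 2.72), against 0.94 (0.72 to 1.17) in pericentral nuclei, a difference of 1.64 (1.38 to 1.899). Mt2 (chr8:94172664-94173568, forward strand) stood at 59.01, 12.9 and 157 CPM, a ratio of 3.61 (3.32 to 3.92). Along the bands Mt1 stood at 26.3, 29.5, 42.2, 80.8 and 63.8 CPM in MASLD and 50.6, 114, 337, 372 and 383 CPM in Aza-TdC. With treatment it neared its high level by the third band of that library's own ranking, which lies at other scores than the third band of MASLD.

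Cux2, a homeobox factor known from female mouse liver (chr5:121856366-122050102, reverse strand), stood at 1.55 (0.801 to 2.71), 0.252 (0.0306 to 0.911) and 91.2 (84.98 to 97.7) CPM in the members, a ratio of 8.497 (6.64 to 11.55) that rests on 2 UMIs in MASLD. In pericentral nuclei it stood at 0.214, 0 and 20.1 CPM, at least 59.999-fold higher with treatment against a floor of 3 counts in the MASLD library. Cyp2b9, a cytochrome also known from female liver (chr7:26173411-26210661, forward strand), stood at 14.5, 32.7 and 172 CPM in the members and 77.4, 249.99 and 224 CPM in pericentral nuclei. Its treatment ratio was 2.398 (2.21 to 2.59) in the members and -0.16 (-0.24 to -0.075) in pericentral nuclei, so the members came close to the pericentral level in this library alone. Acvr2b, an activin receptor, stood at 30.6, 18.4 and 109.9 CPM.

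The other 5 highest genes were Igtp, Zbp1, Gbp6, Gbp3 and Gvin1, each known as interferon-inducible. Igtp, a GTPase of the p47 family, stood at 5.81, 7.32 and 38.2 CPM, a ratio of 2.38 (1.98 to 2.81), and 2.38 in pericentral nuclei. Zbp1, a sensor of Z-form nucleic acid, stood at 0.775, 2.902 and 20.3 CPM. Gbp6 stood at 0.904, 1.77 and 14.1 CPM, Gbp3 at 0.646, 0.252 and 6.65 CPM and Gvin1 at 2.195, 0.505 and 9.35 CPM, with few UMIs in MASLD. Aza-TdC was the highest library for all 5. The 8 macrophage markers summed to 13.1 CPM in MASLD and 18.3 CPM in Aza-TdC members, with 0 and 1 of them at 0, and their part in these ratios was not tested. With the SD cut Igtp stood at 3.505 and Gbp6 at 2.11.

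Among the lists, lipid droplet genes were lower with treatment in 7 of 21 and higher in 0, with a median of -0.62. Fabp1 had a ratio of -1.58 (-1.62 to -1.54), Cidec -1.51 (-1.68 to -1.35) and G0s2 -1.13 (-1.18 to -1.07). Cidea, a droplet protein, stood at 0.129, 4.16 and 0 CPM in the members, at least 12.3-fold lower with treatment against a floor of 3 counts. Cd36 had a ratio of -0.78 (-0.89 to -0.67), or -0.20 with the SD cut, and Plin2 -0.53 (-0.60 to -0.45). For Fabp1, G0s2 and Cidec the treated members lay between MASLD and SD.

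Most genes of the RNA quality list were lower in treated members, 9 with a ratio below 0 and 3 above. The list's summed level was higher, at 45640 CPM against 37989 CPM in MASLD members, as was Malat1. Of the 12 nuclear and RNA quality genes 6 were past the fold lower with treatment and 0 higher, with a median of -1.09. All 4 red blood cell genes were past the fold lower, and Hba-a1, Hba-a2 and Hbb-bs were among the 10 lowest genes of the comparison. Hbb-bs stood at 10.3, 138 and 13.5 CPM in the members. Of 20 nuclear-encoded respiratory chain genes 3 were lower and 0 higher, and 0 of 20 had a ratio above 0. Their median was -0.30, where that of all measured genes was -0.072. The 3 were Cox5a, Ndufa4 and Uqcrfs1, each near the fold and short of it in some settings. With nuclei thinned before scoring Cox5a gave -0.97 and Uqcrfs1 -0.95, and with median-ratio scaling Ndufa4 gave -0.98. The part of globin and RNA quality markers in the lower ratios was not tested.

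Lipogenesis genes stood at a treatment median of 0.21, with 1 of 21 past the fold higher and 0 lower. The 1 gene was Pnpla3, at 1.32 (1.18 to 1.45) in the members and 0.29 (-0.18 to 0.77) in pericentral nuclei, a difference of 1.03 (0.55 to 1.502). Over the list 19 of 21 genes had a difference between zones above 0, with a median of 0.27, where the median of all measured genes was 0.035. This direction was not particular to the list. Of the RNA quality genes 11 of 12 were above 0, with a median of 0.31, and of the fatty acid oxidation genes 22 of 28. Acacb, the acetyl-CoA carboxylase of the mitochondrial surface, stood at 140.2, 358 and 451 CPM in the members and 154, 363 and 223 CPM in pericentral nuclei, a difference of 1.03 (0.93 to 1.14). Cyp4a14 and Cyp4a10 were past the fold higher, at 1.496 (1.45 to 1.54) and 1.58 (1.49 to 1.66), while Fgf21 and Vnn1 were past it lower, at -1.08 and -1.07. With the SD cut Fgf21 stood at -0.94 and Vnn1 at -0.52.

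Of 18 gluconeogenesis genes 3 were past the fold lower and 0 higher, with a median of -0.16. G6pc had a treatment ratio of -1.08 (-1.15 to -1.01), or -0.98 with 30% of the nuclei as members, and Fbp1, the fructose bisphosphatase, stood at 1189, 682 and 356 CPM, a ratio of -0.94. Igfbp1, an insulin-like growth factor binding protein that insulin represses, stood at 27.2, 51.2 and 21.97 CPM. Igfbp1 had a ratio of -1.22, short of the fold at -0.51 with the SD cut and -0.95 with 10% of the nuclei as members. The third gene was Nr4a1, with few UMIs. Gys2, the glycogen synthase of liver, stood at 517, 398 and 145 CPM, a ratio of -1.46 (-1.55 to -1.36), and Pklr had a ratio of -1.499, or -0.70 with the SD cut. Treated members were lowest of the 3 libraries in G6pc, Fbp1, Gys2 and Pklr.

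Of 32 amino acid genes 0 were past the fold with treatment in either direction, with a median of 0.089. In the urea list 1 of 14 was lower and 0 higher, with a median of -0.067, the 1 being Glul at -1.09 (-1.35 to -0.83), or -0.72 with the SD cut. Ass1 had a ratio of 0.28 (0.22 to 0.33), or -0.074 with the SD cut. Cps1 had 0.31 (0.29 to 0.33) in the members and 0.97 (0.95 to 0.997) in pericentral nuclei, a difference of -0.66 (-0.69 to -0.63).

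Of 20 xenobiotic genes, a list of cytochromes and their receptors, 6 were past the fold higher with treatment and 0 lower, with a median of 0.44. The 6 were Cyp2b9, Cyp2c29, Cyp2c38, Cyp2c54, Cyp3a11 and Nr1i3. Cyp3a11, at 1.01, was short of the fold in some settings, such as 0.94 with 30% of the nuclei as members. With nuclei thinned before scoring Cyp3a11 gave 0.96, Cyp2c38 fell from 1.68 to 1.01 and Cyp2c54 from 1.81 to 1.18. Nr1i3, the nuclear receptor CAR (chr1:171213970-171220701, forward strand), stood at 579.6, 268 and 647 CPM in the members, MASLD being lowest, with diet and treatment ratios of -1.11 (-1.19 to -1.04) and 1.27 (1.201 to 1.35). Cyp2c29 and Cyp3a11 are among the cytochromes this receptor is known to induce. Cyp2c29 stood at 53.1, 13.9 and 41.5 CPM and Cyp3a11 at 66.5, 77.7 and 157 CPM. Cyp2b10, another known target, stood at 7.36, 9.84 and 6.31 CPM, highest in MASLD. Cyp2c54 had a ratio of 1.81, or 2.46 with the SD cut, and its treated level of 5.296 CPM was far under its SD level.

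Of 19 hepatocyte transcription factors 3, Onecut1, Nr1d1 and Tox, were past the fold lower with treatment and 0 higher. Nr1d1, at -1.03, was short of the fold in 4 alternative settings, at -0.78 to -0.96. Onecut1, also called HNF6 (chr9:74861921-74891781, forward strand), stood at 657 (639 to 675), 211 (201 to 221) and 75.5 (69.9 to 81.4) CPM, with SD highest and Aza-TdC lowest. Its ratio was -1.64 (-1.72 to -1.56) for the diet and -1.48 (-1.61 to -1.35) for treatment, with -1.74 and -1.75 in pericentral nuclei. Of 11 measured DNA methylation genes 0 were past the fold with treatment, while on the diet 1 was higher and 0 lower. Dnmt1, the maintenance methyltransferase, stood at 8.52 (6.59 to 10.8), 9.46 (7.44 to 11.9) and 10.4 (8.36 to 12.7) CPM, a treatment ratio of 0.13 (-0.32 to 0.59) whose interval held 0. With the SD cut Dnmt1 stood at 1.08 for the diet and -0.80 for the treatment, so no direction is given for it.

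The lowest genes with treatment outside the globins were Pde4b, Zbtb7c, Far2, Limch1 and 3 major urinary protein genes. Pde4b, a phosphodiesterase of cyclic AMP, stood at 46.7, 36.1 and 3.04 CPM in the members and 114, 28.2 and 13.6 CPM in pericentral nuclei, a ratio of -3.57 (-4.19 to -2.997) in the members and -1.05 (-1.36 to -0.75) in pericentral nuclei. Zbtb7c, a transcription factor, stood at 57.8, 94.2 and 10.3 CPM, and Far2, a fatty acyl-CoA reductase, at 2.45, 31.04 and 4.28 CPM. Limch1 stood at 1.68, 7.57 and 0.338 CPM. Mup17 stood at 5.04, 44.9 and 3.49 CPM, Mup11 at 13.8, 29.4 and 3.49 CPM and Mup18 at 1.03, 8.201 and 0.338 CPM, with reads that this family of near-identical genes may share.

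**Figure D5:**
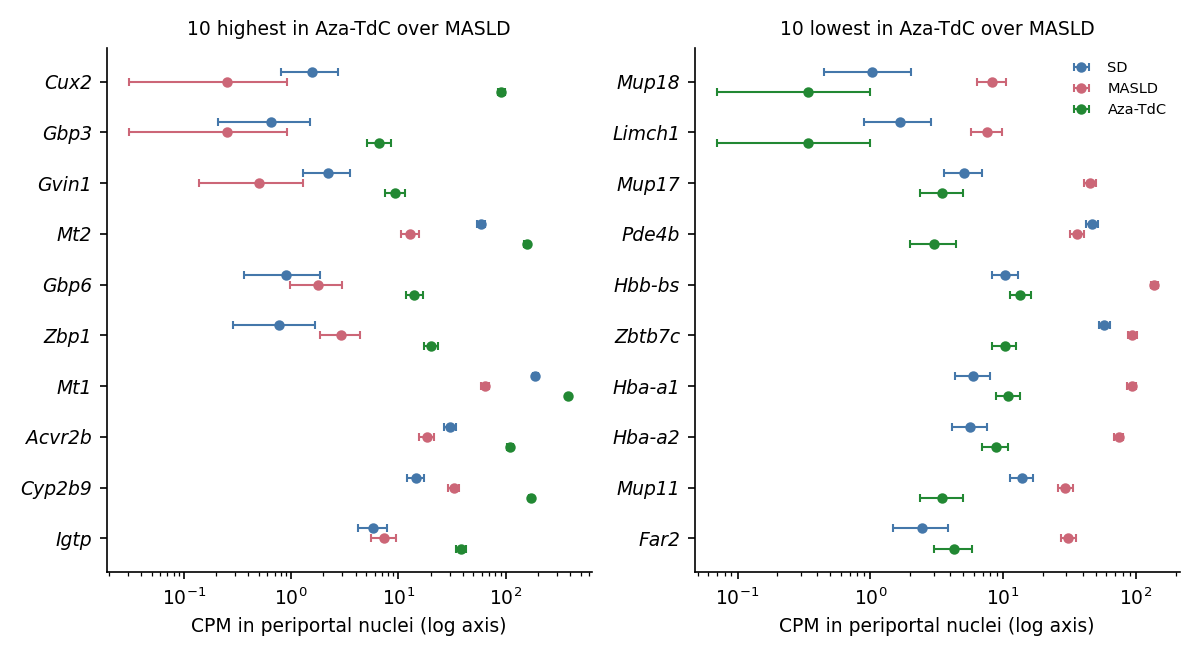
CPM in the members (log x axis) of the 10 highest and 10 lowest genes for Aza-TdC against MASLD (y axis) in the SD, MASLD and Aza-TdC libraries; bars are exact Poisson intervals. Mt1 lies at 189, 63.8 and 383 CPM and Pde4b at 46.7, 36.1 and 3.04 CPM in the order SD, MASLD and Aza-TdC.

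Between zones the treatment difference was past the fold higher in 1.7% of 12068 measured genes and lower in 0.994%. Pparg stood out among the lower genes, with a treatment ratio of -2.69 (-3.06 to -2.33) in the members and 0.24 (0.13 to 0.34) in pericentral nuclei, a difference of -2.92 (-3.295 to -2.55). Along the bands it stood at 82.4, 49.5, 17.7, 4.63 and 3.36 CPM in SD. In MASLD the bands stood at 145, 153, 131, 83.4 and 53.7 CPM, and in Aza-TdC at 171, 121, 17.8, 10.2 and 8.34 CPM. By rank within each library, the treated profile lay nearer to SD in the 3 bands toward the members and nearer to MASLD at the pericentral end. Equal bands lie at different scores in the 3 libraries. Esr1, the estrogen receptor, stood at 167, 286 and 348 CPM in the members and 77.6, 63.4 and 268 CPM in pericentral nuclei, a difference of -1.797 (-1.95 to -1.65). Dop1b stood at 219.8, 43.3 and 12.5 CPM in the members and 225, 104 and 141 CPM in pericentral nuclei, and Tenm3, a teneurin, at 56.9, 71.7 and 15.1 CPM in the members and 937, 1051 and 943 CPM in pericentral nuclei. Both were lowest in treated members. Pde4b was the other of the 5 lowest genes, at -2.52 (-3.16 to -1.88).

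On the higher side were Cyp2b9 at 2.56 (2.35 to 2.76), Cbfa2t3, a transcriptional corepressor, at 1.92 (1.43 to 2.41), Ncoa7, a nuclear receptor coactivator, at 2.97 (1.86 to 4.08), Pakap and Mt1. With 30% of the nuclei as members Ncoa7 and Cbfa2t3 gave 1.66 and 1.31. Cbfa2t3 stood at 0.775, 10.1 and 28.2 CPM in the members and 1.82, 17.4 and 12.9 CPM in pericentral nuclei. Of 20 bile acid genes 1 had a difference above 0, with a median of -0.24, and 1 was past the fold lower and 0 higher. The median of all measured genes was 0.035. Of 28 plasma protein genes 6 were above 0 and 22 below. Cyp7a1, the first enzyme of bile acid synthesis, stood at 28.7, 35.6 and 22.3 CPM in the members and 245, 550.1 and 1012 CPM in pericentral nuclei, a difference of -1.55 (-1.82 to -1.29).

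Set directly against SD, the treated members had 8.97% of 12623 measured genes past the fold higher and 4.18% lower, a comparison that shares a library with each of those above. Ass1 stood at -1.31 (-1.35 to -1.26) in it, G6pc at -2.29 (-2.35 to -2.23), Pnpla3 at 5.24 (4.79 to 5.73), Cd36 at 5.07 (4.54 to 5.66) and Mt1 at 1.02 (0.93 to 1.105). Fabp1 stood at 0.84 (0.78 to 0.89) and Pparg at 1.31 (0.65 to 2.02). Of these genes Fabp1 and Mt1 were nearest to their SD level and Cd36 and Pnpla3 farthest from it.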

How the data were processed

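Single-nucleus RNA sequencing libraries of mouse liver, 1 each for the SD, MASLD and Aza-TdC groups, were measured with 10x Genomics 3′ chemistry. The deposited matrices hold raw UMI counts per gene and nucleus, made by the authors; per the file headers the tool was Cell Ranger 6.1.2. The genome build mm10 (GRCm38) and Seurat 4.4.0 come from the submitters' processing notes. The matrices held 7139, 6928 and 7598 barcodes and 32285 features, of which 32235 had coordinates in GENCODE M21. No source used here states the strand setting.

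Nuclei with at least 1546 UMIs, at most 5% mitochondrial UMIs and at most 2 UMIs over Stab2, Ptprb, Clec4f, Cd5l, Adgre1, Reln, Ntm, Skap1 and Gpm6a were kept as hepatocytes (6837, 6032 and 6784). Doublets were not called. UMIs were summed over the members, or over the bottom 20% of the score, of each library and divided by their total. Log2 ratios have exact conditional binomial 95% intervals, levels exact Poisson intervals, shares exact Clopper-Pearson intervals, and differences between zones log-normal intervals. All of these cover counting error only, and depth is given by the UMI totals of the members. Ratios needed at least 20 UMIs over both sums, and differences between zones at least 10 in each of 4 sums. The computation was tested on simulated counts. The tools were numpy 2.4.6, pandas 2.3.3, scipy 1.17.1 and matplotlib 3.10.9 in Python 3.11.15.

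The members and the 29 gene lists were chosen with earlier results of these data known. Genes named outside the lists were the 10 highest and 10 lowest for the zones, the diet and the treatment by the interval bound nearest 0, the 10 highest and 10 lowest for the diet between zones, and the 5 and 5 for the treatment between zones. At least 50 UMIs in the higher sum were required. For the zones the weakest of the 3 libraries counted, with the same sign in all. Predicted genes and mitochondrial genes were passed over. Up to 6 genes of each list were also eligible by absolute ratio, and the 7 score genes and Dnmt1 were always reported. A few genes that met these criteria are left out of the text. List genes named beside these were chosen after their values were seen. Promoters came from RefSeq (GRCm38.p6). The alternatives tried were the scaling, the UMI minimum, the share and cut that define members, a score on thinned nuclei, the filters on nuclei, and totals without the score genes.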

Additional observations from a re-analysis of the deposited data

Results flagged for a closer look

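For 8 of the genes named here the members and the pericentral nuclei of the same libraries differed between libraries in opposite directions under the same contrast, each by at least 0.5 on the log2 scale. These differences were not tested, since each group had 1 library. The number is not a share of all measured genes. By another criterion, the difference between zones past the fold, 1.93% of 11708 genes were higher and 1.37% lower for the diet. For the treatment 1.7% of 12068 genes were higher and 0.994% lower. On the diet Tcf7l1, the TCF/LEF repressor, stood at -0.52 in the members and 1.58 in pericentral nuclei, and with treatment at 0.59 and -0.56. Slc10a2, the bile acid transporter, stood at 1.36 and -0.94 on the diet, the other way round. Cyp2c38 stood at -0.84 and 1.15 and Cyp2c67 at -1.09 and 0.68 on the diet, with reads that relatives may share. With the SD cut Cyp2c67 stood at -1.89 in the members. Cyp2c38 was under 0.5 in size there in 3 settings, at -0.31 with the SD cut, -0.26 with 30% of nuclei as members and 0.0017 with nuclei thinned before scoring, and only the first 2 keep its sign. Tcf7l1 was just under 0.5 in the members with 30% of nuclei (-0.45 on the diet and 0.4995 with treatment) and with thinned nuclei (-0.47 on the diet).

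With treatment Cyp7a1, the first enzyme of bile acid synthesis, stood at -0.67 in the members and 0.88 in pericentral nuclei. Lpl, the lipoprotein lipase, stood at -1.05 and 0.89, with 24 UMIs in MASLD members and 13 in Aza-TdC members. Ncoa7 stood at 1.57 and -1.403. Serpina1e stood at -1.15 and 0.72, and at -2.11 in the members with the SD cut.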

How the results depend on the processing

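No paired analysis was possible because each group had 1 library, and leaving out a library left no comparison. Of 197 counts recomputed over 12 alternatives, 160 stayed within 1.5 times the reported count. With a minimum of 100 UMIs the genes past the fold (higher, then lower) were 161 and 252 for the zones in SD, 224 and 242 in MASLD, 276 and 241 in Aza-TdC, 728 and 268 for the diet, 113 and 232 for the treatment, 588 and 304 for Aza-TdC against SD, 52 and 38 for the diet between zones and 27 and 23 for the treatment between zones. With 1 UMI as the minimum they were 2569 and 2888, 2673 and 2757, 2935 and 2777, 3938 and 2718, 2486 and 2837, 3843 and 2664, 1062 and 1048, and 1177 and 857 in the same order. With the SD cut, which left 149 MASLD and 564 Aza-TdC members, the counts that moved were 1367 lower for the zones in MASLD, 847 lower for the diet, 440 higher for the treatment, 73 lower for the diet between zones and 84 higher for the treatment between zones. Fewer or more genes enter with another minimum; the cause of the SD-cut shifts was not tested.

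Of 23378 recomputed gene values of any size 1989 moved outside their reported interval. The SD cut moved the most, 577, while 1319 stayed inside. Of 9153 gene values at least 1 in size 2 reversed: Pcdh11x in the treatment stood at 0.22 when nuclei were thinned before scoring, and Gadd45a between the zones of MASLD at -0.76 with the SD cut. Of list medians at least 1 in size 132 of 132 kept their sign. Smaller values could change sign, as Ass1 and Dnmt1 did in the treatment with the SD cut, at -0.074 and -0.80. Genes with ratios near the fold crossed it in some settings, such as Fgg at 1.00 in the treatment. Low counts limited genes with few UMIs in a library, such as Cux2, Fut2 and Gbp3.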

Other observations

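Of all measured genes 11.1% were past the fold higher in the members on the diet and 3.88% lower, and 2.27% higher and 4.13% lower with treatment. Of 20 cholesterol synthesis genes 3 were past the fold higher on the diet and 0 lower, with a median of 0.38, and 2 were higher with treatment and 0 lower, with a median of 0.036. Insig1, the sterol sensor, stood at 59.1, 181 and 209 CPM in the members, with SD lowest. Of 20 bile acid genes 3 were higher on the diet and 1 lower. Cyp8b1, which sets the share of cholic acid, stood at 7.23, 45.3 and 36.8 CPM in the members, a diet ratio of 2.65 (2.24 to 3.08). Hsd3b7, another enzyme of bile acid synthesis, stood at 134, 148 and 63.3 CPM, a treatment ratio of -1.23 (-1.38 to -1.08).

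Of 15 measured Wnt pathway genes 2 were past the fold lower on the diet in the members and 0 higher, with a median of -0.17. Notum, a secreted Wnt inhibitor, stood at 49.2, 10.2 and 6.87 CPM in the members, a diet ratio of -2.27 (-2.63 to -1.92). Of 25 periportal genes outside the score 5 were higher on the diet and 2 lower in the members, and 4 were higher and 10 lower of 23 in pericentral nuclei. Cdh1, the epithelial cadherin, stood at 1.55, 10.5 and 17.1 CPM in the members, Ctsc, a lysosomal peptidase, at 14.3, 57.03 and 107 CPM, and Hsd17b6, a steroid dehydrogenase, at 44.2, 245 and 114 CPM. Etnppl stood at 424, 189 and 316 CPM, a diet ratio of -1.16 (-1.25 to -1.08), or -0.49 with the SD cut. Mgst1, a microsomal glutathione transferase, stood at 268, 1066 and 439 CPM, with MASLD highest.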
